A study of Mus musculus with 10 samples.

Results

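The genes described here encode the machinery that releases neurotransmitter from presynaptic vesicles. They are 43 genes, taken by gene symbol from a named list, and all 43 were found among the 18216 genes of the table. The prefrontal cortex of Arid1b+/- mice was compared with that of wild-type (WT) mice at postnatal day 10. All animals were male C57BL/6N mice, with 5 Arid1b heterozygotes (HT1 to HT5), 5 wild types (WT1 to WT5) and 1 RNA-seq library per replicate. The heterozygotes carried in the germline 1 intact allele and 1 allele in which Cas9 nickase had disrupted exon 5, with loss of a stretch around it and insertion of the bases TT. They were bred from heterozygous males and wild-type females, both genotypes were raised in one cage by the mother, and the labels name no treatment. Arid1b encodes a subunit of the BAF chromatin-remodelling complex. None of the 43 genes lies on chromosome 17, which holds Arid1b, and they are spread over 18 chromosomes. The values are normalised counts per gene, that is, read estimates divided by a size factor for each library.

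An action potential that reaches an axon terminal opens calcium channels, and the calcium that enters makes docked vesicles fuse with the membrane. Fusion is driven by the SNARE proteins, of which VAMP2 sits on the vesicle and syntaxin-1 and SNAP25 on the plasma membrane. Synaptotagmins sense calcium, complexins hold and promote the SNARE complex, and Munc13 and RIM proteins prepare vesicles at the active zone. Vesicular transporters load glutamate into vesicles, and dynamin, amphiphysin and synaptojanin recover membrane after release. In rodent cortex the early postnatal weeks are a period of rapid synapse formation.

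The targeted gene followed the labels in each library. Arid1b had normalised counts of 1767 to 1987 in HT and 2662 to 3018 in WT mice, without overlap, and its log2 fold change was -0.59 (SE 0.05, unadjusted p = 1.19e-08, limma adjusted p = 9.96e-05), and -0.56 without HT2. HT2 stood apart from the other libraries. Its share of mitochondrially encoded transcripts was 8.43% of normalised counts, against 5.15% to 6.76% in the others. The summed normalised count of 15 neuronal markers outside the presynaptic machinery was 231199 in HT2 and 243208 to 259046 in the other 9 mice. Lists of neuron classes did not set HT2 apart. Its sum of 8 cortical glutamatergic markers was 130477, inside the range of 119266 to 145518 in the others. Its sum of 10 GABAergic markers was 21074, inside their range of 18669 to 21797. The sum of 14 astrocyte markers was 226549 in HT2 and 162748 to 216926 elsewhere, and that of 10 endothelial markers 13364 against 9617 to 11538. Log2 fold changes of the genes described are therefore given with and without HT2. In a tissue extract, fewer cells of a type and less RNA per cell cannot be told apart.

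The tissue label was checked against markers of cortical glutamatergic neurons, such as Neurod6. All 8 of these were above 0 in every mouse, with a summed normalised count of 130477 to 143303 in HT and 119266 to 145518 in WT. Markers of neighbouring tissue varied more. The sum of 14 striatal markers ranged from 7896 to 24125 in HT and from 6951 to 19096 in WT, with HT5, WT3 and WT5 lowest. The striatal marker Isl1 was listed at 0 in WT3 and WT5, and all other markers found in the table were above 0 in every mouse.

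Levels were first ordered within WT mice, per kilobase (kb) of exonic length so that genes could be compared. Vamp2, which encodes the vesicle SNARE, had the highest level, at 10932 ± 286 normalised counts per kb (SD, n = 5). It was followed by Slc17a7, the vesicular glutamate transporter VGLUT1 of cortical neurons, at 8787 ± 808. Cplx2 (7547 ± 379), Syp (7480.2 ± 403), Rab3a (6753 ± 277), Syn1 (6562 ± 287), Cplx1 (6228 ± 303), Syt1 (6101 ± 449), Snap25 (5643 ± 394) and Dnm1 (5471 ± 375) came next in normalised counts per kb. In this order Cplx2 and Syp, Rab3a and Syn1, Cplx1 and Syt1, and Snap25 and Dnm1 were neighbours that differed by less than 1 SD. The middle of the order ran from Stx1a (4059.9 ± 299.9) through Syt4 (1762 ± 91.4) and Unc13a (1503 ± 123) to Sv2c (227 ± 33.3). The lowest member was Syn3, at 43.9 ± 3.68 normalised counts per kb, below Syt2 (100.2 ± 29.3), Vamp1 (121 ± 17.1) and Slc17a6 (126 ± 22.3). The 4 members next above them were Syt12 (137 ± 25), Unc13b (139 ± 5.53), Unc13c (169.5 ± 10.1) and Cplx3 (179 ± 46.4). From Syt2 to Unc13b each gene differed from the next by less than the larger of their SDs. Exonic length here counts every annotated exon once, so a gene with long or rarely used exons has its level understated.

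**Figure D1:**
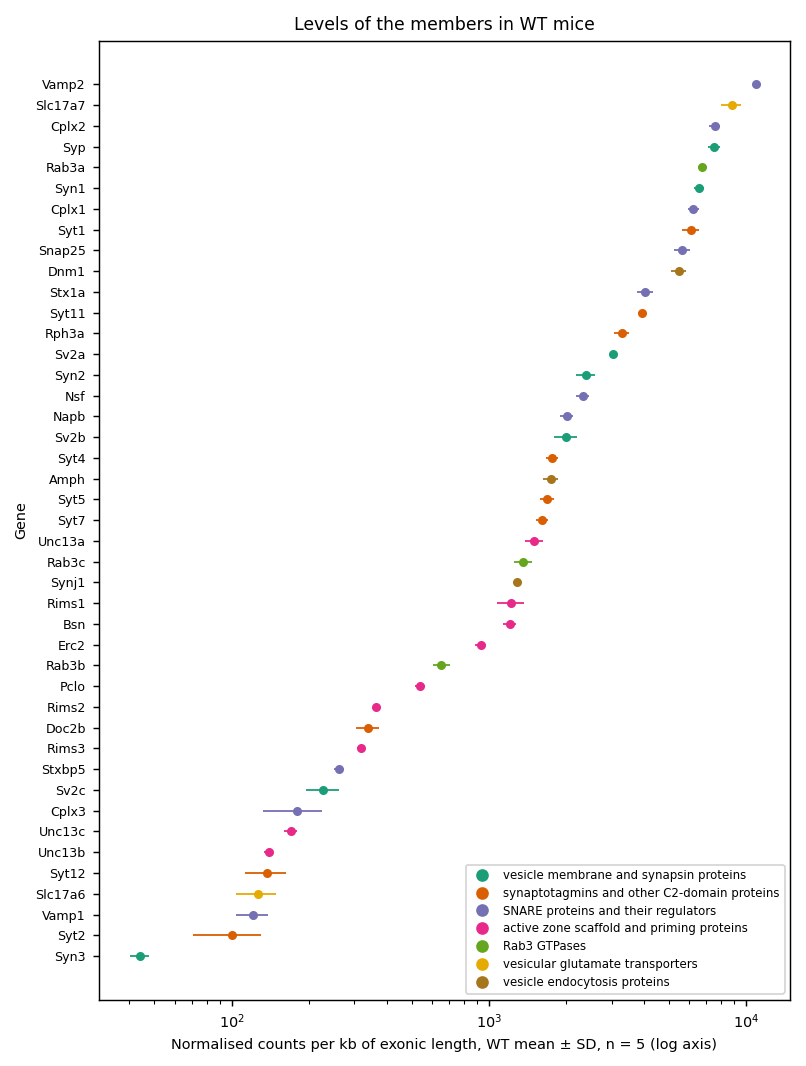
Level of each of the 43 genes in WT mice, in normalised counts per kb of exonic length on a log axis, with points for the mean of 5 mice, bars for the SD and colours for the role. Vamp2 is at the top with 10932 and Syn3 at the bottom with 43.9.

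Most members were slightly lower in HT than in WT mice, but none passed the test. Of the 43, 36 had a negative log2 fold change (83.7%, against 51.2% of the 16781 genes tested), and the median was -0.08, beside 0.00 for all genes. With limma and adjustment over all genes, 0 of 43 members had an adjusted p under 0.05 (background 0.0179% of genes), and the smallest was 0.455. At an unadjusted p under 0.05, 4 members were lower (Rab3c, Unc13b, Unc13a and Syt4, or 9.3% of members against 4.52% of all genes) and 1 was higher (Unc13c, or 2.33% against 4.71%). For 0 of 43 members did the 5 HT and 5 WT values separate without overlap, where 0.918% of all genes had every HT value below every WT value and 0.703% the opposite. The 95% intervals of the log2 fold changes had a median half-width of 0.15, so for a typical member a difference of that size or less could not be told from the spread between mice. The count of 4 lower members became 7 without HT1 (5.11% of all genes in that fit) and 1 without WT3 (3.08%), and was 2 without each of HT2, HT5, WT1, WT2 and WT5 (3.21% to 4.05%).

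The lower median rested in large part on HT2. This mouse had the lowest value of all 10 for 32 of the 43 members (74.4%), whereas it was lowest for 21.8% of all genes tested and highest for 17.1%. Its median difference from the WT mean over the members was -0.29 on the log2 scale, beside 0.03 in HT1, -0.01 in HT3, -0.05 in HT4 and -0.04 in HT5. The WT mice lay between -0.10 (WT4) and 0.05 (WT3), so the other 4 HT mice fell inside the WT range. HT2 was also lowest for 11 of the 15 neuronal markers outside the presynaptic machinery, with a median difference of -0.31. Without HT2, 26 of 43 members had a negative log2 fold change (60.5%, against 50.3% of all genes), and the median was -0.02. The part of RNA quality in these values was not tested.

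Cell type markers differed in mean between the genotypes as well. Of the 15 general neuronal markers, 12 had a negative log2 fold change (median -0.06), 4 of them at an unadjusted p under 0.05. Without HT2 11 were negative (median -0.03), 2 of them under 0.05. At this threshold 4.52% of all genes were lower and 4.71% higher, and without HT2 3.59% were lower and 3.59% higher. Lists of neuron classes did not share one direction. Of 8 cortical glutamatergic markers 5 were negative (median -0.02, 1 under 0.05), and without HT2 5 were positive (median 0.04, 1 under 0.05). Of 10 GABAergic markers 7 were positive (median 0.04), with 1 positive and 1 negative under 0.05. Without HT2 5 were positive (median 0.02), 1 of them under 0.05. Log2 fold changes were positive for 14 of 14 astrocyte markers (median 0.23, 9 at an unadjusted p under 0.05), 11 of 11 microglial markers (median 0.18, 4 under 0.05) and 13 of 13 oligodendrocyte-lineage markers (median 0.37, 1 under 0.05). Without HT2 they were positive for 13, 10 and 12 of these, with medians of 0.18, 0.10 and 0.37, and 6, 0 and 1 were under 0.05. Endothelial markers were positive for 8 of 10 (median 0.09, and 0.04 with 6 of 10 without HT2). Of markers of neighbouring tissue, 13 of 14 striatal ones were positive (median 0.48, and 0.47 with 13 of 14 without HT2), as were 7 of 7 of olfactory bulb (median 0.53, and 0.27 with 5 of 7 without HT2) and 5 of 7 of thalamus (median 0.02, and 0.04 with 6 of 7 without HT2). None of these 4 lists had a positive marker at an unadjusted p under 0.05. The sum of 7 olfactory bulb markers was 3572 in HT2 and 3473 in WT4, the mice with the lowest member medians, and 613 to 1991 in the other 8. The part of cell composition or neighbouring tissue in the members' values was not tested.

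**Figure D2:**
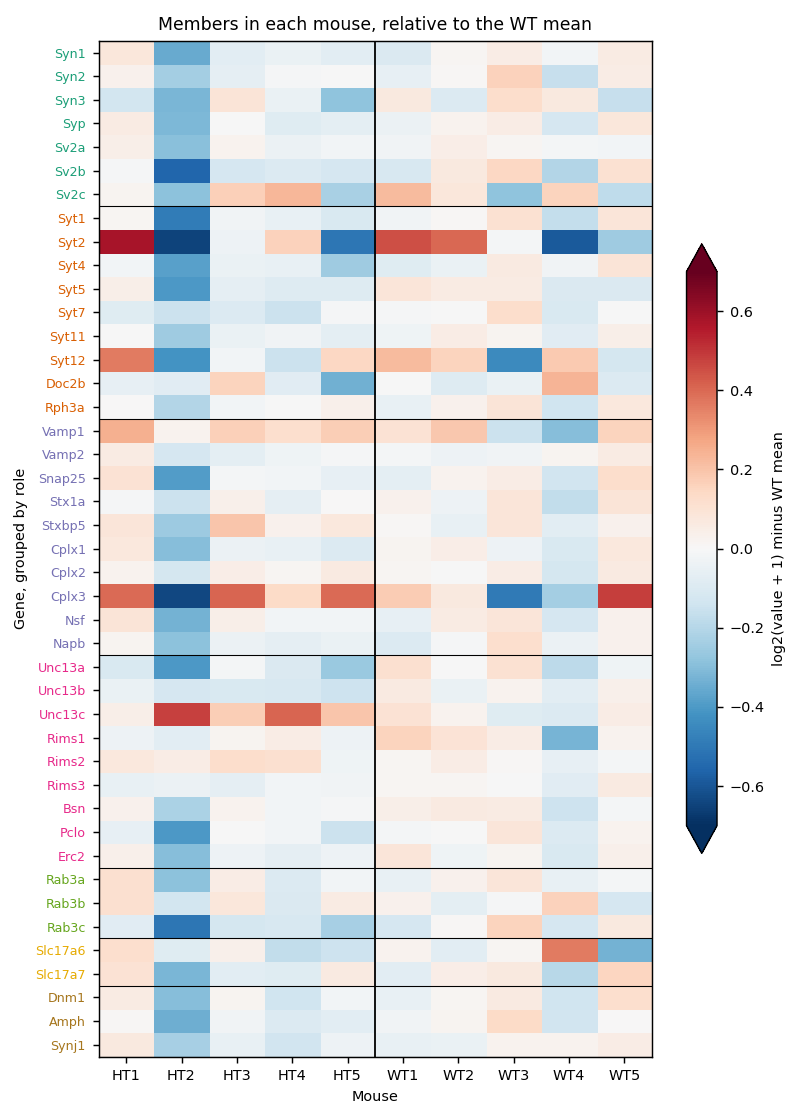
Heat map of the 43 genes (rows, grouped by role with lines between groups and gene names coloured by role) in the 10 mice (columns), as log2(value + 1) minus the WT mean. The HT2 column is blue in nearly all rows, with a median of -0.29, and Unc13c is the row in which HT2 is the highest of all mice.

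**Figure D3:**
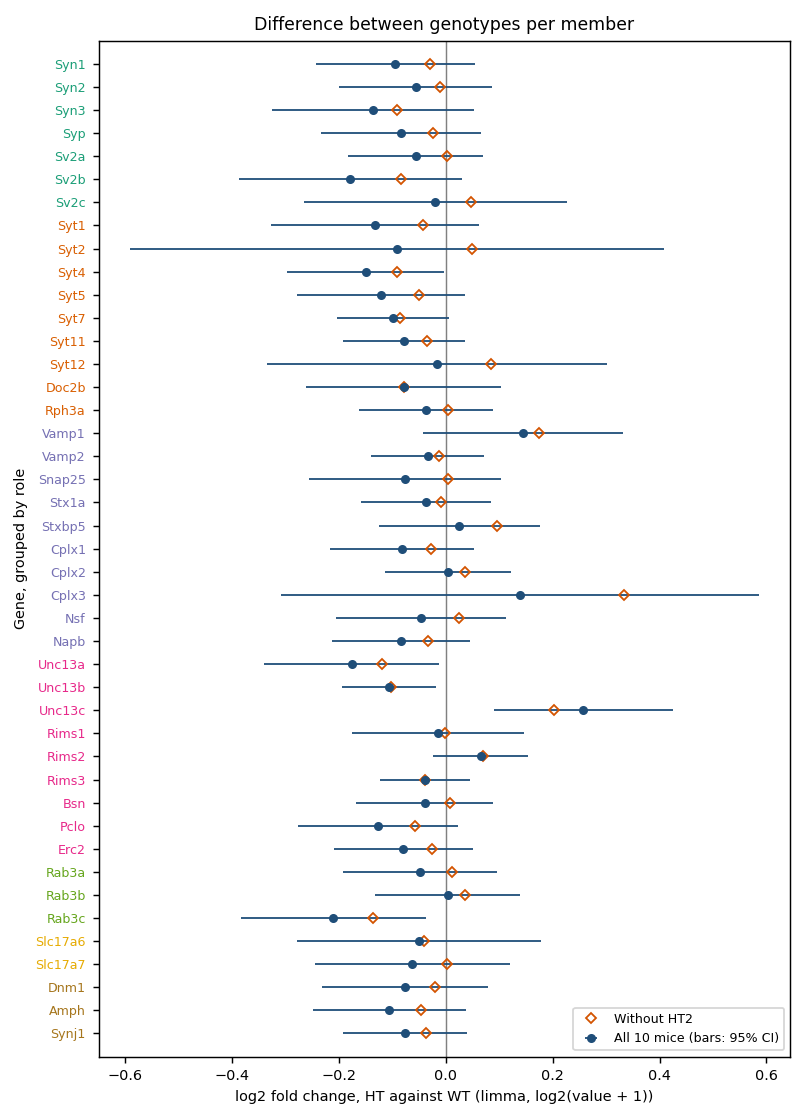
Log2 fold change of HT against WT for each gene, with dots and 95% confidence intervals from limma over all 10 mice and open diamonds for the estimate without HT2. The names are coloured by role, 36 of 43 dots lie below 0, and 26 of 43 diamonds do.

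The first group comprised proteins of the vesicle membrane and the synapsins that tether vesicles to each other and to actin. All 7 genes had a negative log2 fold change, with a median of -0.08, and 0 had an unadjusted p under 0.05. Without HT2 the median was -0.02 and 5 of 7 were negative. HT2 was the lowest of the 10 mice for each of the 7. Syp encodes synaptophysin, an abundant vesicle membrane protein. Mice HT1 to HT5 had Syp normalised counts of 40582, 31251, 38794, 36761 and 37113, and mice WT1 to WT5 had 37801, 39673, 40360.4, 35938 and 41124. The HT mice other than HT2 lay inside the WT range, and the log2 fold change was -0.08 (SE 0.07, unadjusted p = 0.254, limma adjusted p = 0.7), and -0.02 without HT2.

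Syn1 encodes synapsin I, which is phosphorylated when the terminal is active. Syn1 reached 22811, 16929, 20540.2, 20933 and 20535 normalised counts in HT1 to HT5 and 20169, 21855, 22409, 21337 and 22470.1 in WT1 to WT5. HT2 was below all WT mice and HT1 above them. Its log2 fold change was -0.09 (SE 0.07, unadjusted p = 0.193, limma adjusted p = 0.653), and -0.03 without HT2. Sv2b, a paralogue of the vesicle glycoprotein gene Sv2a, had the most negative log2 fold change of the group. Its mean was 14814 ± 2009 in HT and 16696 ± 1703 normalised counts in WT (SD, n = 5), and the log2 fold change was -0.18 (SE 0.10, unadjusted p = 0.0872, limma adjusted p = 0.572). HT2 stood at 11329.5 and the other HT mice between 15310.3 and 16518, and without HT2 the log2 fold change was -0.08. Normalised counts of the synapsin gene Syn2 were 14144 to 17056 in HT and 14923 to 18721 in WT, and those of its paralogue Syn3 were 431 to 573 in HT and 479.7 to 586 in WT. Sv2a ranged from 11544 to 14521 in HT and 13884 to 14564 in WT. In each of these genes HT2 was the lowest mouse. Log2 fold changes were -0.14 for Syn3, -0.06 for Syn2, -0.06 for Sv2a and -0.02 for Sv2c, and without HT2 they were -0.09, -0.01, 0.00 and 0.05.

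Sv2c, known for its high expression in basal ganglia, varied among mice of both genotypes. The 3 mice with the lowest striatal marker sums, HT5 (7896), WT3 (6951) and WT5 (7285), had Sv2c normalised counts of 1861, 1797 and 1931. HT2 had 1789 at a striatal marker sum of 15624. The other 6 mice had 2208 to 2564 at sums of 15843 to 24125. The part of striatal tissue in these values was not tested.

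The vesicular glutamate transporters load vesicles of excitatory neurons. Slc17a7 (VGLUT1) is the main form in mature cortical neurons and Slc17a6 (VGLUT2) the main form in thalamus and in young neurons. Among HT mice in order, Slc17a7 normalised counts were 50634, 37828, 44879.6, 44572 and 49352, and among WT mice 44806, 48774, 49566, 41303 and 52447. The HT mice other than HT2 lay inside the WT range, and the log2 fold change was -0.06 (SE 0.09, unadjusted p = 0.477, limma adjusted p = 0.824), and 0.00 without HT2. The normalised counts of Slc17a6 were 731, 635, 692, 599 and 610.1 in HT1 to HT5 and 687, 639.7, 681, 869 and 537 in WT1 to WT5. WT4 had the highest and WT5 the lowest value of all mice, and the log2 fold change was -0.05 (SE 0.11, unadjusted p = 0.646, limma adjusted p = 0.893), and -0.04 without HT2. In WT mice Slc17a6 had a mean ratio to Slc17a7 of 0.0147 in normalised counts, and in HT mice of 0.0145. Summed counts of 7 thalamic markers ranged from 2585 to 3024 in HT and 2333 to 2880.02 in WT.

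The genes for SNARE proteins and for the factors that clamp or disassemble them did not share one direction. Of 10 genes, 6 had a negative and 4 a positive log2 fold change, with a median of -0.04 (0.01 without HT2), and 0 had an unadjusted p under 0.05. In HT1 to HT5 Vamp2 stood at 43282, 38307, 39740, 40794 and 41359, and in WT1 to WT5 at 41189, 40653, 40913, 42149.8 and 43304 (normalised counts). HT2 was again lowest, at 92% of the WT mean, and the log2 fold change was -0.03 (SE 0.05, unadjusted p = 0.504, limma adjusted p = 0.837), and -0.01 without HT2. Snap25, the palmitoylated SNARE of the plasma membrane, stood lower in that mouse, at 76.1%. For Snap25, the HT mice in order had normalised counts of 40959, 29156, 37947, 37788 and 36805, and the WT mice 36447, 38973, 39609, 34902 and 41682. The log2 fold change was -0.08 (SE 0.08, unadjusted p = 0.382, limma adjusted p = 0.774), and 0.00 without HT2.

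Stx1a encodes syntaxin-1A, the SNARE that Munc13 proteins open. The HT mice, HT1 to HT5, gave 10725, 9733, 11049, 10356 and 10822 for Stx1a, against 11017, 10542, 11463, 9579 and 11518 in WT1 to WT5 (normalised counts). WT4, not HT2, was the lowest mouse for this gene, and the log2 fold change was -0.04 (SE 0.06, unadjusted p = 0.524, limma adjusted p = 0.845), and -0.01 without HT2. Log2 fold changes of Nsf, the ATPase that takes used SNARE complexes apart, and of its adaptor gene Napb were -0.05 and -0.08. Nsf ranged from 15322 to 20572 in HT and 17777 to 20462 in WT, and Napb from 11603 to 14336 in HT and 13239.5 to 15326 in WT (normalised counts). The complexin genes Cplx1 and Cplx2 had log2 fold changes of -0.08 and 0.00. Cplx1 ranged from 11090.5 to 14318 in HT and 12669 to 14314 in WT, and Cplx2 from 34084 to 38858 in HT and 34093 to 38751 in WT. HT2 was lowest for all 4 genes, and without it the log2 fold changes were 0.02 for Nsf, -0.03 for Napb, -0.03 for Cplx1 and 0.04 for Cplx2.

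Of the 4 positive members of the SNARE group, those with the smallest p were Vamp1, Cplx3 and Stxbp5, and their groups overlapped. Mice HT1 to HT5 had Vamp1 normalised counts of 1446, 1237, 1366, 1319 and 1373, and mice WT1 to WT5 had 1305, 1388, 1099, 991 and 1356. Vamp1, a paralogue of Vamp2, was 109.8% of the WT mean in HT, with WT3 and WT4 below all HT mice. Its log2 fold change was 0.14 (SE 0.09, unadjusted p = 0.119, limma adjusted p = 0.599), and 0.18 without HT2. Cplx3 reached 676, 330.2, 682, 563 and 677 normalised counts in HT1 to HT5 and 582, 538, 364, 435 and 719.9 in WT1 to WT5. Cplx3 encodes a complexin anchored to membrane by a lipid, and in young cortex it is found in subplate neurons. Its log2 fold change of 0.14 had an SE of 0.21 (unadjusted p = 0.513), and was 0.33 without HT2, the lowest mouse (unadjusted p = 0.0555). Among HT mice in order, Stxbp5 normalised counts were 4574, 3619.7, 4948, 4414 and 4541, and among WT mice 4339, 4169, 4585, 4101 and 4416. Stxbp5, for tomosyn, an inhibitor of SNARE assembly, was above the WT mean of 4322 in 4 of 5 HT mice, and HT2 was below all WT mice. This gave a log2 fold change of 0.03 (SE 0.07, unadjusted p = 0.72, limma adjusted p = 0.918), and 0.10 without HT2 (unadjusted p = 0.0586).

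Synaptotagmins and related proteins carry C2 domains, which in many of them bind calcium and membrane lipids. All 9 genes had a negative log2 fold change, with a median of -0.09 (-0.04 without HT2, with 6 of 9 negative), and 1, Syt4, had an unadjusted p under 0.05 (4.52% of all genes were lower at this threshold), while 0 did without HT2. Syt1 encodes the sensor for fast synchronous release. The normalised counts of Syt1 were 51296, 36176, 49831, 48946 and 47155 in HT1 to HT5 and 49831, 51061, 54594, 45143 and 53735 in WT1 to WT5. HT2 was 71.1% of the WT mean, while the other HT mice lay inside the WT range. On the log2 scale the difference was -0.13 (SE 0.09, unadjusted p = 0.169, limma adjusted p = 0.636), and -0.04 without HT2.

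Syt4 encodes a synaptotagmin that does not trigger fast release and is regulated by activity. In HT1 to HT5 Syt4 stood at 6747, 5268, 6641, 6603 and 5767, and in WT1 to WT5 at 6455, 6632, 7168, 6746 and 7287 (normalised counts). HT2 and HT5 were below all WT mice, and HT1, HT3 and HT4 lay inside the WT range. The log2 fold change was -0.15 (SE 0.07, unadjusted p = 0.0468, limma adjusted p = 0.532), and -0.09 without HT2 (unadjusted p = 0.113). Syt7 encodes a slow calcium sensor of high affinity. For Syt7, the HT mice in order had normalised counts of 11355, 10833, 11256, 10828 and 11976, and the WT mice 11970, 11999, 13093, 11188 and 12008. HT2 and HT4 were below all WT mice. Its log2 fold change was -0.10 (SE 0.05, unadjusted p = 0.0626, limma adjusted p = 0.55), and -0.09 without HT2.

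Syt5 ranged from 3039 to 4128 in HT and 3738 to 4257 in WT, and Syt11 from 17231 to 20412 in HT and 19359 to 21189 in WT (normalised counts). Doc2b, for a calcium sensor of high affinity, ranged from 1168 to 1638 in HT and 1376 to 1735 in WT, and Rph3a, for the Rab3 effector rabphilin, from 13171 to 15573 in HT and 13793 to 16152 in WT. HT2 was lowest for Syt5, Syt11 and Rph3a but not for Doc2b. Syt5 and Syt11 had log2 fold changes of -0.12 and -0.08, Doc2b -0.08 and Rph3a -0.04. Without HT2 these 4 values were -0.05, -0.04, -0.08 and 0.00. The SE of the log2 fold change was largest in this group for Syt2 and Syt12. Syt2, which in cortex is found at terminals of fast inhibitory neurons, ranged from 471 to 1101 normalised counts in HT and from 491 to 1010.2 in WT, and its 95% interval of log2 fold change ran from -0.59 to 0.41. Syt12 ranged from 559.8 to 962 in HT and from 549 to 875 in WT, with an interval from -0.33 to 0.30. Their log2 fold changes were -0.09 for Syt2 and -0.02 for Syt12, and 0.05 and 0.08 without HT2.

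The active zone group comprises 9 genes for scaffold proteins and for the Munc13 proteins, which open syntaxin-1 and so prime vesicles for fusion. Of these, 7 had a negative and 2 a positive log2 fold change (median -0.04, and -0.03 without HT2), and at an unadjusted p under 0.05 Unc13a and Unc13b were lower and Unc13c was higher in HT. Over all genes 4.52% were lower and 4.71% higher at this threshold, and without HT2 the group had 1 lower and 1 higher, where 3.59% of all genes were lower and 3.59% higher. Unc13a (GRCm38 chr8:71624417-71671757, minus strand, protein-coding) encodes Munc13-1, the main form at excitatory terminals of the forebrain. The HT mice, HT1 to HT5, gave 17599, 14336, 18756, 17667 and 15787 for Unc13a, against 20486, 18876, 20344, 16669 and 18517 in WT1 to WT5 (normalised counts). HT2 and HT5 were below all WT mice, and WT1, WT2 and WT3 above all HT mice. The mean was 16829 ± 1754 in HT and 18978 ± 1557 in WT (SD, n = 5). This gave a log2 fold change of -0.18 (SE 0.08, unadjusted p = 0.0377, limma adjusted p = 0.515), and -0.12 without HT2 (unadjusted p = 0.0877).

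Unc13b (GRCm38 chr4:43058953-43264871, plus strand, protein-coding) encodes Munc13-2. Mice HT1 to HT5 had Unc13b normalised counts of 3059, 2911, 2939.8, 2927 and 2859, and mice WT1 to WT5 had 3301, 3059.97, 3214, 3007 and 3245. Only HT1 exceeded the lowest WT mouse, WT4, and the other 4 HT mice lay below every WT mouse. The mean was 2939 ± 73.4 against 3165 ± 126 (SD, n = 5), and the log2 fold change -0.11 (SE 0.04, unadjusted p = 0.0216, limma adjusted p = 0.5). Leaving out HT2 changed this little, to -0.10 (unadjusted p = 0.0285). HT2 lay close to the other HT mice, at 92% of the WT mean.

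Unc13c (GRCm38 chr9:73479422-73968966, minus strand, protein-coding) encodes Munc13-3, which is best known from cerebellar granule cells. Unc13c reached 1532, 2072, 1676, 1978 and 1701 normalised counts in HT1 to HT5 and 1598, 1516, 1405, 1395 and 1542 in WT1 to WT5. HT2 and HT4 were highest, and HT1 was the only HT mouse inside the WT range. The mean was 1792 ± 225 in HT and 1491 ± 88.6 in WT (SD, n = 5), or 120.2% of WT, and the log2 fold change was 0.26 (SE 0.08, unadjusted p = 0.0053, limma adjusted p = 0.455). This was the smallest p among the 43 members, and without HT2 the log2 fold change was 0.20 (unadjusted p = 0.013). Leaving out each mouse in turn gave log2 fold changes of 0.20 to 0.31. Beside it, the astrocyte marker sums were 179265, 226549, 179529, 206190.1 and 216926 in HT1 to HT5 and 162748 to 191407 in WT. The part of astrocyte RNA in the Unc13c value was not tested.

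For the 3 Munc13 genes, the 250 bases before the first listed RefSeq transcription start site are shown (GRCm38.p6, read on the strand of the gene). GC boxes (GGGCGG on either strand, the letters bound by Sp1-type factors) are in capitals. A link between these letters and the log2 fold changes was not tested. The windows are chr8:71671758-71672007 (minus strand), chr4:43058703-43058952 (plus strand) and chr9:73969038-73969287 (minus strand).
Unc13a: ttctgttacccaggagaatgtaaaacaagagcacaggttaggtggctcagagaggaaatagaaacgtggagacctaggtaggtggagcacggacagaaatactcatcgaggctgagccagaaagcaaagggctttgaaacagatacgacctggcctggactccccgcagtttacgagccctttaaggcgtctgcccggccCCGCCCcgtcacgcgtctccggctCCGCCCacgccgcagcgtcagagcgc
Unc13b: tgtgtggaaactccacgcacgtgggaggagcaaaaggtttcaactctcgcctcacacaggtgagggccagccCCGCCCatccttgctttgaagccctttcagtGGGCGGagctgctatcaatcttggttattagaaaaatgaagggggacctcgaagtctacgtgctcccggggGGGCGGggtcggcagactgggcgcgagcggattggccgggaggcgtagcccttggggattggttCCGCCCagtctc
Unc13c: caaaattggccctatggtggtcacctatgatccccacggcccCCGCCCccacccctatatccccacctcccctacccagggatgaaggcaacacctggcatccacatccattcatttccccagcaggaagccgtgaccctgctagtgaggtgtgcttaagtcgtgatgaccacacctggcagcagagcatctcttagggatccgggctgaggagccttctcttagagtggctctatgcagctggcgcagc

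These stretches held 2 GC boxes in Unc13a, 4 in Unc13b and 1 in Unc13c, with 18, 16 and 6 CpG dinucleotides. Their GC content was 58%, 60.8% and 58.8%. Promoter windows of 300 bases were found in RefSeq for 34 of the 43 genes, in 45 windows. A GC box lay in 62.2% of them and in 59.2% of the 15525 windows of all genes tested. The cyclic-AMP response element TGACGTCA was found in 2.22% (in Syn1) against 2.82%, and the E-box CACGTG in 8.89% against 9.29%. The letters CTATTTTT, part of the site of MEF2 factors, were in 2.22% (in Sv2b) against 0.902%. TATAAA was in 6.67% against 7.58%, and GCGCATGC, part of the NRF1 site, in 6.67% against 4.61%. The half-sites CAGCACC and GGACAG of the REST element, spaced by 1 to 3 bases, were in 0 member windows and in 0.0644% of all windows. All motifs were searched on both strands, none of them contains another, and a match describes the letters, not binding.

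The other active zone genes each had a larger unadjusted p than any of the Munc13 genes, although Pclo had a larger log2 fold change in size than Unc13b (-0.13 against -0.11). Rims1 encodes RIM1, which links vesicles, Munc13 and calcium channels. Among HT mice in order, Rims1 normalised counts were 8722, 8507, 9055, 9275 and 8719, and among WT mice 9968, 9566, 9255, 7138 and 9080.1. WT4 was the lowest mouse by far. On the log2 scale the difference was -0.01 (SE 0.07, unadjusted p = 0.846, limma adjusted p = 0.957), and -0.10 without WT4 and 0.00 without HT2. Rims2, for RIM2, was the other positive member, with a log2 fold change of 0.07 (SE 0.04, unadjusted p = 0.14, limma adjusted p = 0.612), and 0.07 without HT2. The normalised counts of Rims2 were 3986, 3913, 4111, 4083 and 3696 in HT1 to HT5 and 3813, 3913, 3803, 3637 and 3741 in WT1 to WT5. Its HT mice were above the WT mean in 4 of 5 cases, with HT5 in the lower part of the WT range. Rims3 ranged from 2419 to 2495 in HT and 2393 to 2636 in WT, and Erc2, for an active zone scaffold protein, from 7369.6 to 9259.9 in HT and 8385 to 9578 in WT (normalised counts), with log2 fold changes of -0.04 and -0.08, and -0.04 and -0.03 without HT2. WT4 was lowest for Rims3, as for Rims1 and Rims2, and HT2 for Erc2.

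Bsn and Pclo encode the giant scaffold proteins bassoon and piccolo. In HT1 to HT5 Bsn stood at 19627, 16449.9, 19525, 18918 and 19128, and in WT1 to WT5 at 19771, 20060.2, 19975, 17341 and 19001 (normalised counts). For Pclo, the HT mice in order had normalised counts of 11669.7, 9179, 12094, 11953 and 10942, and the WT mice 12014, 12124, 12862, 11359 and 12328. HT2 was lowest of all mice for both genes. The log2 fold change was -0.04 (SE 0.06) for Bsn and -0.13 (SE 0.07) for Pclo, with limma adjusted p-values of 0.845 and 0.575. Without HT2 the values were 0.00716 for Bsn and -0.06 for Pclo.

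**Figure D4:**
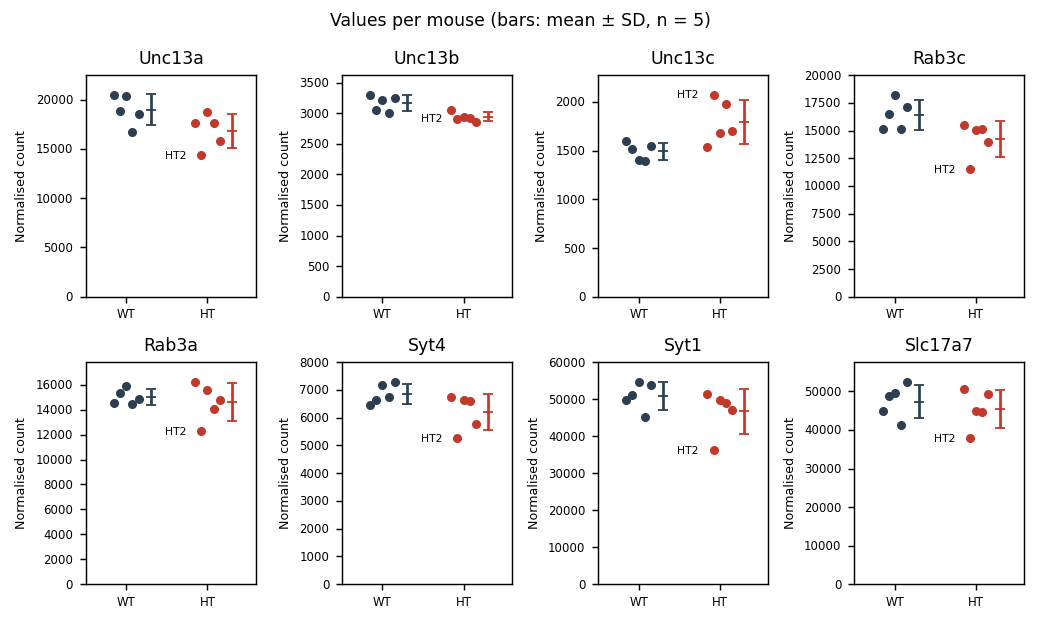
Normalised counts of 8 genes in each WT and HT mouse (dots), with the mean ± SD of 5 mice beside them and HT2 marked, on axes that start at 0. Unc13c is the only one of the 8 in which the HT mean exceeds the WT mean (1792 against 1491), and HT2 is the lowest HT mouse in all but Unc13b and Unc13c.

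Rab3 proteins are small GTPases of the vesicle that bind RIM and rabphilin. Rab3c (GRCm38 chr13:110054187-110280996, minus strand, protein-coding) had the most negative log2 fold change among the members, and Rab3a and Rab3b were nearly level. The HT mice, HT1 to HT5, gave 15488, 11525, 15050.4, 15149.8 and 13941 for Rab3c, against 15111, 16491, 18232, 15107 and 17143 in WT1 to WT5 (normalised counts). HT2, HT3 and HT5 were below all WT mice, and WT2, WT3 and WT5 above all HT mice. The mean was 14231 ± 1620.2 in HT and 16417 ± 1346 in WT (SD, n = 5), or 86.7% of WT, and the log2 fold change was -0.21 (SE 0.08, unadjusted p = 0.021, limma adjusted p = 0.498). Without HT2 it was -0.14 (unadjusted p = 0.036). Mice HT1 to HT5 had Rab3a normalised counts of 16231, 12291, 15586, 14055 and 14805, and mice WT1 to WT5 had 14507, 15336, 15949, 14504 and 14866. Rab3a is the most abundant form in brain, and here HT2 was its lowest and HT1 its highest mouse. Its log2 fold change was -0.05 (SE 0.07, unadjusted p = 0.483, limma adjusted p = 0.826), and 0.01 without HT2. Rab3b ranged from 2103 to 2482 in HT and 2119.5 to 2575 in WT (normalised counts), with a log2 fold change of 0.00, and 0.04 without HT2.

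All 3 endocytosis genes had a negative log2 fold change, and 0 had an unadjusted p under 0.05. Dnm1 encodes dynamin-1, which cuts endocytic vesicles from the membrane. Dnm1 reached 29834, 23302, 29083, 26002 and 28251 normalised counts in HT1 to HT5 and 27619.7, 28913, 29939, 26033 and 31082 in WT1 to WT5. HT2 was below all other mice, and the log2 fold change was -0.08 (SE 0.07, unadjusted p = 0.307, limma adjusted p = 0.728). Amph, for amphiphysin, ranged from 6211 to 7919.6 in HT and 7176 to 8616 in WT, and Synj1, for the lipid phosphatase synaptojanin-1, from 8886 to 10931 in HT and 10072 to 10801 in WT (normalised counts), with HT2 lowest for both. Amph had a log2 fold change of -0.11, and Synj1 -0.08. Without HT2 the 3 values were -0.02, -0.05 and -0.04.

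Ratios between related members were then compared within each mouse, since a ratio does not depend on the size factor of the library. For 16 pairs the mean log2 ratio was compared between genotypes by exact permutation, two-sided, over the 252 ways to divide 10 mice into 5 and 5. At an unadjusted p under 0.05 there were 2 pairs, and 0 passed Benjamini-Hochberg adjustment over the 16. With 5 against 5 the smallest p is 0.00794, and a single pair at that p has an adjusted value of 0.127 over 16 tests. The log2 ratio of Unc13c to Unc13a was -3.52, -2.79, -3.48, -3.16 and -3.21 in HT1 to HT5 and -3.68, -3.64, -3.86, -3.58 and -3.59 in WT1 to WT5. Every HT mouse lay above every WT mouse, with a difference of 0.43 (exact permutation p = 0.00794, adjusted 0.127), and in linear terms the mean ratio was 0.108 in HT and 0.0789 in WT. Without HT2 the difference was 0.32, and HT1 and HT3 were the HT mice nearest to the WT mice. A ratio does not say which of its 2 genes differs.

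The log2 ratio of Rab3c to Rab3a was -0.07, -0.09, -0.05, 0.11 and -0.09 in the HT and 0.06, 0.10, 0.19, 0.06 and 0.21 in the WT mice, each in order of number. HT4 was the only HT mouse inside the WT range, and the other 4 lay below every WT mouse. The difference was -0.16 (exact permutation p = 0.0317, adjusted 0.254), and -0.15 without HT2. The log2 ratio of Pclo to Bsn was -0.75, -0.84, -0.69, -0.66 and -0.81 in HT1 to HT5 and -0.72, -0.73, -0.64, -0.61 and -0.62 in WT1 to WT5, with overlap of the groups and a difference of -0.09 (exact permutation p = 0.0794, adjusted 0.349), and -0.06 without HT2. For Slc17a6 to Slc17a7 the difference was 0.01 (exact permutation p = 0.96), with a wider spread in WT (-6.61 to -5.57) than in HT mice (-6.34 to -5.90). The other 12 pairs had differences between -0.12 (Sv2b to Sv2a) and 0.22 (Cplx3 to Cplx1), with adjusted exact permutation p-values of at least 0.349.

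**Figure D5:**
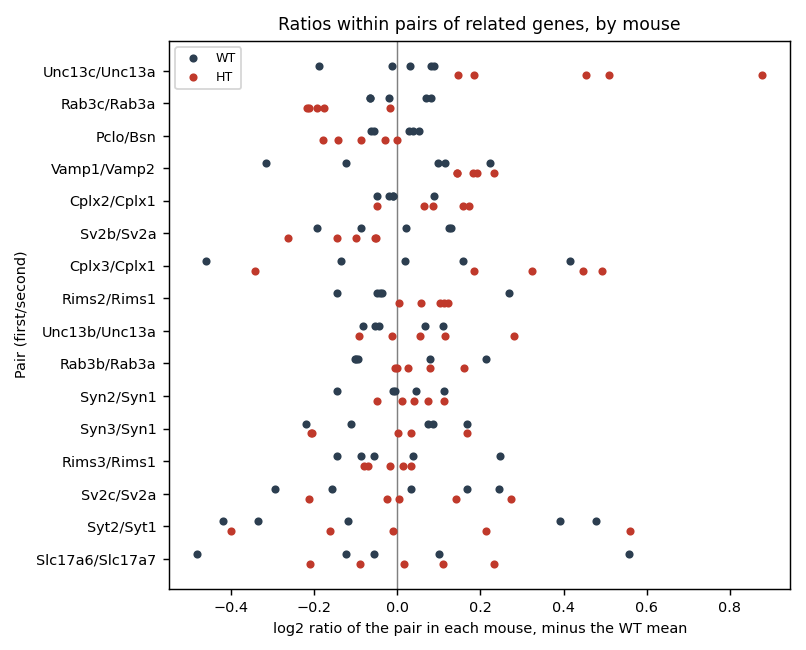
Log2 ratio of the first to the second gene of each pair in each mouse, minus the WT mean, with the 5 HT and 5 WT mice as dots and the pairs ordered by p. Unc13c/Unc13a at the top is the only pair in which the HT dots lie apart from the WT dots, with a mean difference of 0.43.

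Other genes of the presynaptic terminal gave a wider frame. A list of 65 further genes (SNARE partners, liprins, clathrin and its adaptors, synucleins and others) had 63 genes tested, of which 73% had a negative log2 fold change, against 51.2% of all genes, with a median of -0.04. Without HT2 the share was 63.5%, against 50.3% of all genes, and the median -0.02. At an unadjusted p under 0.05, 4 were lower and 4 higher in HT, and 0 passed limma adjustment over all genes. The shares of all genes were 4.52% lower and 4.71% higher. Without overlap between groups, 2 were lower and 1 was higher, where 0.918% and 0.703% of all genes did so. Without WT4 the count lower was 9 (5.14% of all genes), and without HT2 or WT5 the count higher was 2 (3.59% and 3.96%). HT2 was the lowest mouse for 36 of the 63. Ppfia2 encodes liprin-alpha-2, an active zone organiser. Among HT mice in order, Ppfia2 normalised counts were 3736, 3684, 3797, 3935 and 3509.7, and among WT mice 4174, 3976, 4695, 4423 and 4519. All HT mice were below all WT mice, and the log2 fold change was -0.22 (SE 0.05, unadjusted p = 0.000703, limma adjusted p = 0.346), and -0.22 without HT2. Stxbp6, for amisyn, a SNARE-binding inhibitor of fusion, also separated the groups. The normalised counts of Stxbp6 were 1797, 1925, 1856, 1852 and 1712 in HT1 to HT5 and 1971, 2049, 2252, 2129.5 and 2071 in WT1 to WT5. Its log2 fold change was -0.20 (SE 0.05, unadjusted p = 0.00128, limma adjusted p = 0.389), and -0.21 without HT2, which was the highest of the HT mice.

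After these 2, the lower gene with the smallest p was Syngr3, for the vesicle protein synaptogyrin-3, with a log2 fold change of -0.15 (SE 0.05, unadjusted p = 0.0111, limma adjusted p = 0.477), and -0.11 without HT2. In the other direction, Sh3gl3, for an endophilin, had every HT value above every WT value. In HT1 to HT5 Sh3gl3 stood at 1073, 979.95, 984, 1043 and 962, and in WT1 to WT5 at 942, 920.1, 822, 901 and 866 (normalised counts). The log2 fold change was 0.18 (SE 0.05, unadjusted p = 0.00542, limma adjusted p = 0.456), and 0.19 without HT2. Slc17a8, for VGLUT3, ranged more widely in HT. For Slc17a8, the HT mice in order had normalised counts of 470.3, 305, 532, 493 and 360.3, and the WT mice 349, 296, 301, 335 and 304. HT2 lay inside the WT range and the other 4 HT mice above it, and the log2 fold change was 0.42 (SE 0.13, unadjusted p = 0.00787, limma adjusted p = 0.475), and 0.54 without HT2. Syt6 had a log2 fold change of 0.19 (unadjusted p = 0.0445), and 0.20 without HT2 (unadjusted p = 0.0533), and its groups overlapped.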

How the data were processed

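RNA-seq values of 10 libraries were analysed, grouped and numbered as in their titles. The authors estimated transcript abundance with Salmon 1.1.0 on GRCm38 with correction for GC bias, summed it to genes with tximport and divided it by DESeq2 size factors, so the deposited values are a normalised signal per gene. They are not whole reads (18.9% to 37.8% of low values were within 0.1 of whole multiples of one step), so no count test was run and sequencing depth is unknown. Totals of the normalised counts were 31106330 to 32106791 per library, and they do not give the depth. Changes in total RNA per cell cannot be seen, and genes with near-identical copies share reads.

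Symbols, positions and exonic lengths came from GENCODE M21. Values were transformed as log2(value + 1), and 16781 genes with a mean of at least 10 were tested with limma 3.58.1 (mean-variance trend, genotype as the only factor) in R 4.3.3, with Benjamini-Hochberg adjustment over all of them and 0.05 as the threshold. Log2 fold changes on this scale understate changes of low genes. Libraries are given as separate replicates, and nothing in the labels names litters or batches, so p-values measure the spread between these samples. Ratios were tested by exact permutation. The members and lists were chosen with earlier results of these data known. Values per mouse are given for the 5 members in each direction with the smallest p and both genes of the 3 pairs with the smallest p. They are also given for the defining members of the roles (Syp, Syn1, Syt1, Snap25, Vamp2, Stx1a, Unc13a, Rims1, Rab3a, Slc17a7, Slc17a6 and Dnm1). Of the other presynaptic genes, the 3 in each direction with the smallest p are named. Sv2b, Sv2c, Syt2 and Syt12 were singled out after their values were seen.

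Further marker lists were of GABAergic neurons (summed normalised counts 19433 to 21074 in HT and 18669 to 21797 in WT), microglia (11702 to 16442 and 11484 to 13084), oligodendrocyte lineage (72604 to 100380.1 and 42337 to 103733) and olfactory bulb (694 to 3572 and 613 to 3473). Alternatives were the fit without each mouse in turn, pseudocounts of 0.5 and 10, all genes unfiltered, genes with a mean of at least 50, rescaling by the upper quartile, quantile normalisation, blocking on replicate number, sample quality weights, and a prior variance without trend. One marker of the cortical list is not reported here. The fits were tested on simulated data.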

Additional observations from a re-analysis of the deposited data

Results flagged for a closer look

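Each of the 43 genes was examined in each group of 5 mice for a mouse far from the rest, as the gap to its neighbour over the whole range (critical value 0.71). Of 86 groups, 8 passed, where chance gives about 1 in 20 (4.3), and the genes are not independent of each other. HT2 was the low mouse in 7 of them, with ratios of 0.735 for Sv2a, 0.767 for Sv2b, 0.726 for Syt1, 0.71 for Syt11, 0.752 for Rph3a, 0.714 for Cplx2 and 0.777 for Bsn. The remaining one was Doc2b, at 1735 normalised counts in WT4 against 1376 to 1470.3 in the other WT mice, with a ratio of 0.737.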

How the results depend on the processing

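Under the alternatives that kept all mice and under each fit without 1 mouse, 0 of 43 members passed the adjusted threshold (smallest limma adjusted p 0.339, for Unc13c without HT1). The median log2 fold change of the members stayed negative, at -0.0431 with quantile normalisation, -0.0407 with sample quality weights (HT2 weighted 0.407), and -0.102 to -0.0207 without 1 mouse, weakest without HT2. At an unadjusted p under 0.05, 2 members were lower without the variance trend (4.04% of all genes). The members lower without 1 mouse numbered 1 to 7 (3.08% to 5.35% of all genes). Those higher numbered 2 with quantile normalisation (4.49%) and 1 to 2 without 1 mouse (3.37% to 5.76%). Without 1 mouse, members without overlap numbered 0 to 2 lower (2 without WT4, where 2.2% of all genes were, and 1 without HT1, 1.56%) and 0 to 1 higher (1 without HT1, 1.52%, or HT5, 0.882%). Of the other presynaptic genes, 3 to 9 were lower and 2 to 5 higher at an unadjusted p under 0.05 without 1 mouse. Across these fits 3.08% to 5.35% of all genes were lower and 3.37% to 5.76% higher. Arid1b passed throughout.

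Values near 0 changed sign. This happened with quantile normalisation for Vamp2 (0.001), Stx1a (0.0063) and Rims1 (0.0076), and with sample weights for Sv2c (0.0373) and Syt12 (0.0264). Without 1 mouse the ranges that include both signs were Cplx2 -0.0266 to 0.0365, Rab3b -0.0255 to 0.0447, Sv2a -0.0806 to 0.0021, Sv2c -0.0894 to 0.0471, Syt2 -0.257 to 0.0485, Syt12 -0.128 to 0.084, Rph3a -0.0721 to 0.0042, Snap25 -0.119 to 0.0036, Nsf -0.0818 to 0.0245, Bsn -0.0757 to 0.0072, Rab3a -0.0884 to 0.0119, Slc17a7 -0.111 to 0.0021, Stxbp5 -0.0169 to 0.0958, Rims1 -0.0961 to 0.0243, Slc17a6 -0.132 to 0.0415. For ratios they were Syn3/Syn1 -0.0962 to 0.0003, Sv2c/Sv2a -0.0363 to 0.0986, Syt2/Syt1 -0.0893 to 0.16, Rims3/Rims1 -0.0604 to 0.0376, Slc17a6/Slc17a7 -0.108 to 0.152. The cause was not tested.

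With the replicate number as a block (replicate block), 4 members were lower and 1 higher at an unadjusted p under 0.05, and 0 passed adjustment. The other presynaptic genes numbered 6 lower and 3 higher at that unadjusted threshold. Of all genes in this fit, 4.2% were lower and 4.79% higher. Same-numbered mice had correlations of their deviations between -0.041 and 0.101, with a mean of 0.0375, against -0.00909 for mice of different number. Of the HT mice, 3 of 5 correlated best with their own number. These values do not settle whether the numbers pair the mice. The labels do not say what the numbers mark, so the main fit did not use them.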
